A study of Homo sapiens with 42 samples.

Results

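The comparison described here is MOLM-13 cells given quizartinib and everolimus together against MOLM-13 cells given vehicle, both cultured in medium conditioned by human bone marrow stromal cells (hBMSC-CM). It rests on input RNA, the RNA taken before any polysome fractionation, and uses 6 of the 42 libraries of the series, 3 per group, chosen by their labels alone. MOLM-13 is a human acute myeloid leukemia (AML) cell line with an internal tandem duplication in FLT3 (FLT3-ITD) and a KMT2A fusion, and the labels give its genotype as WT in every sample. Quizartinib (AC220) inhibits the FLT3 receptor kinase, and everolimus inhibits mTOR complex 1 (mTORC1). The combo cultures received 3 nM quizartinib and 10 nM everolimus for 12 hours, and the vehicle was DMSO. Further input libraries were used only for comparison, 3 in each group: 3 nM quizartinib alone and 10 nM everolimus alone in hBMSC-CM, and combo and vehicle in regular RPMI, all at 12 hours. The conditioned medium came from HS-5, a single stromal cell line, so it carries secreted factors and no stromal cells. The study describes its replicates as biological, and the labels number them.

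FLT3-ITD signals without ligand through STAT5, through RAS and ERK, and through PI3K and AKT, which reaches mTORC1. STAT5 drives genes such as PIM1 and CISH, ERK drives a set of feedback genes such as DUSP6, SPRY2 and ETV5, and AKT keeps the FOXO transcription factors out of the nucleus. mTORC1 promotes ribosome production, sterol and nucleotide synthesis and mitochondrial activity and restrains autophagy, while MYC, downstream of several of these arms, activates genes for ribosome assembly and cell growth. The study asked whether adding an mTOR inhibitor undoes the shelter that stromal medium gives to FLT3-inhibited cells.

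The 6 libraries held 26.2 to 36.0 M counts and between 18546 and 21475 genes with at least 1 count, the lowest number in vehicle replicate 3, the library with the most counts. The 13 myeloid leukemia markers summed to 2590 to 3020 CPM (counts scaled to a common library total) in combo and 2210 to 2720 in vehicle, and FLT3, CD33, SPI1, CEBPA, MEIS1 and HOXA9 were present in all 6 libraries. ANPEP, also on the list, was at 0 in all 3 vehicle libraries. The 11 lymphoid markers summed to 104 to 209 CPM in combo and 71.9 to 136 in vehicle, with CD3E and CD3G at 0 in all 6. Of 18 stromal markers, 8 were at 0 in all 6 libraries (COL3A1, COL6A2, THY1, LUM, DCN, POSTN, LOX and CCN2), and the list summed to 13.4 to 37.8 CPM in combo and 3.82 to 9.31 in vehicle. COL1A1 was the main riser (3.79, 20.3 and 10.6 against 0.613, 0.734 and 0.551 CPM). Unlike the sums, the COL1A1 values carry the scaling factors named at the end of this paragraph. COL1A1 rose as far in RPMI, where no stromal medium was used (log2 fold change 4.14 against 4.19 in hBMSC-CM), and the part of other cells or of RNA quality in the results was not tested. In bulk RNA, a change in the cells present and a change of RNA per cell cannot be told apart. Mitochondrially encoded genes took 6.18, 3.10 and 3.30% of the counts in combo and 5.80, 2.53 and 2.58% in vehicle, so replicate 1 was high in both groups and combo was the higher library in 3 of 3 same-numbered pairs, by 0.557 ± 0.166 percentage points (SD, n = 3). A paired exact permutation test, two-sided, gave p = 0.25, the smallest p that 3 pairs allow, and the unpaired one p = 0.5. Each value below is a CPM scaled by trimmed mean of M-values factors (TMM), and a gene is called where its adjusted p is under 0.05.

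Both drugs together changed genes across the measured transcriptome. Of 12939 genes tested, 3430 were called (26.5%), 1475 higher (11.4%) and 1955 lower (15.1%), and 1955 of the calls were at least 2-fold. The CPM ranges of the groups did not overlap for 5622 genes (43.5%). With the replicate number as a block within each fraction the count was 5494, of which 2632 were higher, and that fit is called the replicate block below. With 1 of the 6 libraries left out it was 2417 (without vehicle replicate 3) to 3283. Here and below, a library left out was dropped together with the polysome library of the same culture. Of 158 genes named with coordinates, 51 overlap an exon of a gene on the other strand, MYC, BMF and CISH among them, and whether counting used strand is not given in the sources used here.

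Genes had to average 10 CPM or more over the 6 libraries, with groups that do not overlap, to be ranked by size of change. The largest fall among them was that of SLC39A14. SLC39A14, a zinc and manganese importer, was at 1.12, 1.56 and 0.78 CPM in combo and 22.1, 18.2 and 18.1 in vehicle, 5.97% of its vehicle level (log2 -4.07 ± 0.46, adjusted p = 4.82e-08). NME1, a nucleoside diphosphate kinase, was at 2.82, 4.43 and 9.01 against 35.8, 53.3 and 106 CPM (log2 -3.59 ± 0.43, adjusted p = 1.26e-07). SLC29A1, the nucleoside carrier ENT1, was at 6.64, 11.0 and 10.6 against 119, 90.6 and 98.0 CPM, 9.16% of vehicle (log2 -3.45 ± 0.36, adjusted p = 1.42e-08). In each of the 3 genes every combo library lay below every vehicle library, and replicate 3 was the highest of its group for NME1, whose reads can be shared with the near-identical NME2. CDC25A, the phosphatase that lets cells pass from G1 into S phase, was at 6.05, 7.56 and 5.03 against 50.8, 45.3 and 63.5 CPM (log2 -3.10 ± 0.24, adjusted p = 4.61e-11). PYCR1, which makes proline in mitochondria, was at 6.52, 11.6 and 12.4 against 65.8, 71.1 and 85.5 CPM (log2 -2.87 ± 0.27, adjusted p = 1.42e-09). The other 7 of the 12 largest falls were B4GALT2, NCS1, SLCO4A1, NUDT8, GAL, TEAD4 and CDC6, with log2 fold changes between -3.55 and -2.83.

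The largest rise among the ranked genes was that of BMF. BMF, a BH3-only activator of apoptosis, was at 233, 250.2 and 241 CPM in combo and 24.7, 49.5 and 24.4 in vehicle, 7.34-fold higher (log2 2.88 ± 0.34, adjusted p = 7.34e-08). YPEL3, a growth-suppressing gene, was at 85.5, 77.5 and 107 against 13.4, 19.2 and 11.8 CPM (log2 2.6 ± 0.29, adjusted p = 3.77e-08). IL10RA, the ligand-binding chain of the interleukin-10 receptor, was at 117, 102 and 101.1 against 19.2, 27.1 and 12.4 CPM (log2 2.45 ± 0.37, adjusted p = 5.37e-06). In these 3 genes every combo library was far above every vehicle library, and vehicle replicate 2 was the highest vehicle library each time. BCL6, a transcriptional repressor, was at 34.4, 24.9 and 25.6 against 7.06, 6.22 and 1.81 CPM (log2 2.49 ± 0.36, adjusted p = 2.58e-06), and AXL, a receptor tyrosine kinase, at 17.6, 30.9 and 16.3 against 1.69, 7.46 and 2.47 CPM (log2 2.49 ± 0.54, adjusted p = 0.000653). The remaining 7 of the 12 largest rises were TRANK1, DPEP2, LILRB3, ISG20, HIST1H2AC, CREBRF and TMEM71, with log2 fold changes between 2.44 and 2.83.

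**Figure D1:**
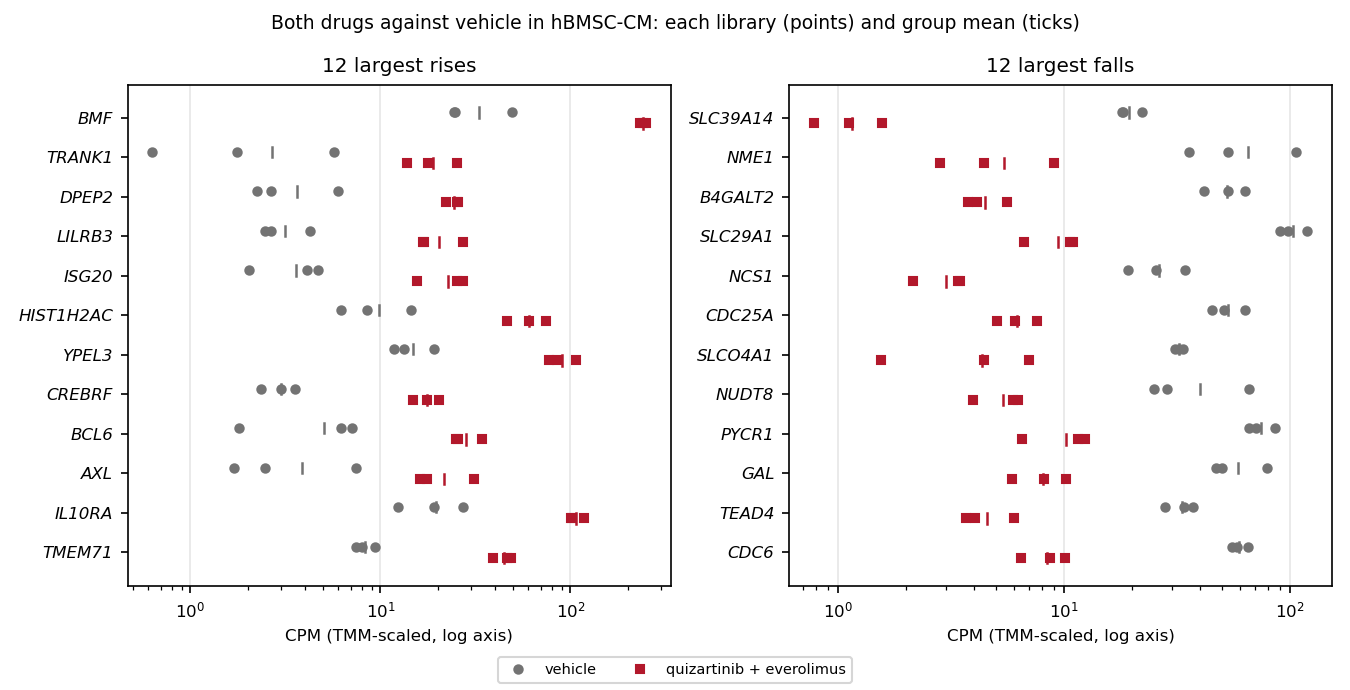
CPM (log axis) of the 12 largest rises and 12 largest falls in each combo and vehicle library of hBMSC-CM input, with a tick at each group mean. The 2 groups of 3 libraries do not overlap in any of the 24 genes, which the choice of the genes required, and BMF stands at 233 to 250.2 CPM in combo and 24.4 to 49.5 in vehicle.

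Genes of nucleolar ribosome biogenesis, which make and assemble ribosomal subunits, fell almost without exception. This list and those below were written with earlier results of these data known. Of 41 tested, 39 were lower and 0 higher, with a median log2 fold change of -1.49, against 15.1% lower and a median of 0.021 over all genes tested. MRTO4, a factor of large-subunit assembly, was at 22.4, 33.9 and 39.2 CPM in combo and 142, 166 and 209 in vehicle (log2 -2.44 ± 0.30, adjusted p = 2.22e-07). RRP9, which binds the U3 small nucleolar RNA, was at 6.96, 11.4 and 18.6 against 51.0, 62.3 and 82.2 CPM (log2 -2.40 ± 0.34, adjusted p = 1.94e-06), and BOP1, another large-subunit factor, at 55.3, 73.3 and 92.8 against 301, 359.7 and 518 (log2 -2.41 ± 0.27, adjusted p = 4.2e-08). In all 3 the lowest vehicle library was above the highest combo library.

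The E-box CACGTG, the sequence bound by MYC with MAX and by related factors, was searched in RefSeq promoter windows (build GRCh38.p14, 250 bases before to 50 after the gene start, both strands, the motif being its own reverse complement). It was in 34.3% of the 35 windows matched for the ribosome biogenesis genes, in 7.26% of all 35116 promoters and in 10.5% of the 9311 windows matched for genes tested. The E-box was also in 25% of the windows of FOXO targets, 27.3% of those of the MYC network and 23.1% of those of the KMT2A program, lists described below that had members called higher and 0 lower. The windows of MRTO4 and RRP9, 2 of the 3 largest falls of the list, and of NME1, the second largest fall among the ranked genes, are shown because each holds 1 E-box, in capitals, close to the gene start.
MRTO4, chr1:19251555-19251854, plus strand: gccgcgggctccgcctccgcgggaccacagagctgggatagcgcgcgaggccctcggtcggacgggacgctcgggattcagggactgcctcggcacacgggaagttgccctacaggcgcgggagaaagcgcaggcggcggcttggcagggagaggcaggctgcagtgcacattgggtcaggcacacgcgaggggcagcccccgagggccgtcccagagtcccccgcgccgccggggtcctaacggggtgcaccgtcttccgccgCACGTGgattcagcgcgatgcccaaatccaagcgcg
RRP9, chr3:51941855-51942154, minus strand: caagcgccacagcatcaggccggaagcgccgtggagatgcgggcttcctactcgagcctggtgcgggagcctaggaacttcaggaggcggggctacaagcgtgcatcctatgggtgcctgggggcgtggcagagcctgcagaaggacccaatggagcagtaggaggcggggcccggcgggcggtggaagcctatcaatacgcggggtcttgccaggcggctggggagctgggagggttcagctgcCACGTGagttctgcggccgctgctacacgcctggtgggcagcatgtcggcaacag
NME1, chr17:51153309-51153608, plus strand: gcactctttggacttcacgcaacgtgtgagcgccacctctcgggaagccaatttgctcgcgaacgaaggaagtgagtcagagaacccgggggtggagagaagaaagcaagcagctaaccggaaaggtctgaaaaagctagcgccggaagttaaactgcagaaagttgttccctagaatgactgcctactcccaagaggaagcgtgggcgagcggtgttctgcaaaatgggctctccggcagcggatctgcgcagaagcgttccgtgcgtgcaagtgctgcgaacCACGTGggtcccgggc
A match is a description of the sequence and does not show that a factor was bound there in these cells.

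DNA replication genes fell as widely. Of 41 tested, 39 were lower and 0 higher (median log2 -1.57). CDC6, which loads the replicative helicase, was at 6.46, 8.69 and 10.1 against 58.3, 55.5 and 65.1 CPM (log2 -2.83 ± 0.32, adjusted p = 4.38e-08), and GINS2, a subunit of the active helicase, at 5.23, 6.7 and 6.53 against 44.7, 34.8 and 48.8 (log2 -2.80 ± 0.25, adjusted p = 1.02e-09), with a reservation because an exon of GSE1 lies on the other strand. MCM10, which helps start replication forks, was at 4.32, 6.32 and 3.58 against 40.1, 27.8 and 25.6 CPM (log2 -2.71 ± 0.44, adjusted p = 1.6e-05). The groups stood apart in each. The E2F motif TTTCGCGC (both strands) was in 13.9% of the 36 matched replication windows, in 0.515% of all promoters and in 1.13% of the windows of genes tested. Of 18 G1 regulators, 8 were lower and 2 higher (6 with the replicate block). E2F1 was at 4.82, 7.13 and 8.81 against 33.1, 31.7 and 47.3 CPM (log2 -2.43 ± 0.31, adjusted p = 3.99e-07), and CCNE1, which encodes cyclin E1, at 3.64, 5.62 and 5.63 against 23.3, 20.4 and 35.3 (log2 -2.40 ± 0.32, adjusted p = 8.07e-07). CCND2, which encodes cyclin D2, was at 27.9, 26.9 and 25.2 against 69.0, 58.1 and 60.5 CPM (log2 -1.23 ± 0.16, adjusted p = 8.07e-07). CDKN1B, the CDK inhibitor p27, was higher (log2 0.81 ± 0.28, adjusted p = 0.0296), a call that was lost when combo replicate 1 or 2 or vehicle replicate 3 was left out (adjusted p = 0.0975 to 0.194).

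Mitotic genes were called at shares near those of all genes. Of 30 tested, 4 were lower and 2 higher (median log2 -0.13), against 15.1% and 11.4% over all genes. MAD2L1, a spindle checkpoint gene, fell (log2 -1.17 ± 0.20, adjusted p = 2.86e-05), and CDK1 was at 37.9, 35.5 and 32.8 against 68.8, 59.8 and 53.8 CPM (log2 -0.78 ± 0.24, adjusted p = 0.0121). The 2 higher calls were TOP2A (log2 0.90 ± 0.32, adjusted p = 0.0363) and CENPF (log2 1.17 ± 0.43, adjusted p = 0.043). The CENPF call was lost whichever library was left out (adjusted p = 0.0585 to 0.146), the TOP2A call for 4 of the 6 (up to 0.218), and the CDK1 call without vehicle replicate 1 (0.0547), without which 2 members in place of 4 were lower. The replicate block called 6 members higher and 5 lower.

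Many genes that charge tRNAs, fold proteins and degrade them fell. Of 20 cytosolic tRNA synthetases, 12 were lower and 0 higher (median log2 -0.81), FARSB falling furthest, from 88.7, 85.6 and 103 CPM in vehicle to 12.8, 15.1 and 18.0 in combo (log2 -2.59 ± 0.28, adjusted p = 2.77e-08), with VARS (log2 -1.64 ± 0.28) and IARS (log2 -1.62 ± 0.29) next. Of 22 cytosolic chaperone genes, 17 were lower (median -1.15), among them AHSA1, the HSP90 co-chaperone, at 66.6, 60.2 and 57.0 against 218, 186 and 208 CPM (log2 -1.74 ± 0.19, adjusted p = 2.77e-08). HSPA8, the constitutive HSP70, fell from 1656, 1636 and 1057 CPM to 651, 458 and 352 (log2 -1.57 ± 0.28, adjusted p = 5.18e-05), a gene with many processed pseudogenes. Of 25 genes of endoplasmic reticulum chaperones and the unfolded protein response, 12 were lower and 0 higher (median -0.81). HSPA5, which encodes the chaperone BiP, was at 293, 544 and 348 against 1312, 1594 and 1585 CPM (log2 -1.92 ± 0.29, adjusted p = 4.67e-06), and MANF was at 33.8, 54.4 and 64.0 against 193, 229 and 395 (log2 -2.42 ± 0.37, adjusted p = 5.73e-06). Of 31 proteasome genes, 23 were lower (median -0.72), for example PSMC3 at log2 -1.26 ± 0.17 and PSMA3 at -1.30 ± 0.31. Without replicate 1 of all groups, 11 of the proteasome genes (median -0.73) and 12 of the cytosolic chaperone genes (median -1.16) were lower. In that fit 1181 of all genes tested were lower, in place of 1955.

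Few genes of the ribosome's own proteins were called. Of 78 cytosolic ribosomal protein genes, 2 were lower and 0 higher (median log2 -0.075), against 15.1% lower over all genes. The 2 were RPL17 (log2 -1.82 ± 0.41, adjusted p = 0.000917), at 1.67, 1.71 and 3.18 against 7.06, 7.18 and 8.93 CPM, and RPS26 (log2 -1.30 ± 0.33, adjusted p = 0.00335), whose call was lost without vehicle replicate 3 (adjusted p = 0.082). Both families have many processed copies in the genome, so reads may be split between them, and the replicate block called 4 lower. Of 45 translation factors, 15 were lower and 0 higher (6 with the replicate block, median -0.27), among them EIF4EBP1, the mTORC1 substrate that holds back cap-dependent translation, at 33.0, 33.5 and 45.0 against 112, 83.1 and 161 CPM (log2 -1.68 ± 0.22, adjusted p = 4.49e-07), and EIF5A at 214, 224 and 269 against 715, 666 and 852 (log2 -1.66 ± 0.27, adjusted p = 2.18e-05). Without replicate 3 of all groups 8 of the 45 were lower.

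Genes of the ATF4 program and amino acid supply were called lower more often than higher. Of 31 tested, 14 were lower and 2 higher (median log2 -0.81). STC2, a secreted stress glycoprotein, was at 0.587, 0.756 and 0.0867 CPM in combo and 10.2, 9.41 and 15.1 in vehicle (log2 -4.57 ± 0.52, adjusted p = 4.82e-08). ALDH1L2, of mitochondrial folate metabolism, was at 0.793, 0.68 and 0.751 against 6.42, 5.17 and 6.3 (log2 -3.00 ± 0.64, adjusted p = 0.000527), and CHAC1, which degrades glutathione, at 0.294, 0.605 and 0.26 against 2.69, 2.87 and 5.43 (log2 -3.22 ± 0.85, adjusted p = 0.00437). These 3 were under 1 CPM in every combo library. The 2 higher members were CEBPB (log2 0.85 ± 0.20, adjusted p = 0.00123) and SLC7A11, the cystine carrier (log2 0.89 ± 0.29, adjusted p = 0.0194, lost without combo replicate 2 or vehicle replicate 1, adjusted p up to 0.106). ATF4 itself was at 381, 289 and 573 against 378, 342 and 837 CPM (adjusted p = 0.481). ASNS had too few counts to test, with 16, 16 and 0 counts in combo and 13, 3 and 0 in vehicle.

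The ATF4 response motif TGATGNAA (both strands) was in 37.5% of the 16 windows matched for tRNA synthetases and 16% of the 25 matched for the ATF4 list, in 3.62% of all promoters and in 1.59% of the windows of genes tested. CHAC1 and IARS, 2 of the genes that fell, are shown with that motif, here on the opposite strand, in capitals.
CHAC1, chr15:40953221-40953520, plus strand: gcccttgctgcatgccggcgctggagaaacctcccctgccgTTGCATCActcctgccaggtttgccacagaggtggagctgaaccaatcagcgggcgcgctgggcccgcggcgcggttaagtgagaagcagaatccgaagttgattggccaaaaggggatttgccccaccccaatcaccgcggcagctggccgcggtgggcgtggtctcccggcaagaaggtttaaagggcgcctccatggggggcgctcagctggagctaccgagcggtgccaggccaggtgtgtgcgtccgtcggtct
IARS, chr9:92293648-92293947, minus strand: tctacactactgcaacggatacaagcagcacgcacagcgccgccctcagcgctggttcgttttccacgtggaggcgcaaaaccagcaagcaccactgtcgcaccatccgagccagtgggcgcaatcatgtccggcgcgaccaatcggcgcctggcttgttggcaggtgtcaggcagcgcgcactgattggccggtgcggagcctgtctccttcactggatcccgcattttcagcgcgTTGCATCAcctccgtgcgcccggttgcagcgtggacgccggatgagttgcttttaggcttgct

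Many nuclear genes of mitochondria were lower, and genes on the mitochondrial genome were not called. Of 74 nuclear genes of the respiratory chain and ATP synthase, 34 were lower and 0 higher (median log2 -0.69), and of 72 mitochondrial ribosomal proteins 44 were lower (median -0.75). ATP5MC1, the c subunit of ATP synthase, was at 13, 17.1 and 22.7 against 76.5, 88.9 and 155 CPM (log2 -2.6 ± 0.34, adjusted p = 4.49e-07), and CYCS, cytochrome c, at 27.8, 39.4 and 29.9 against 105, 107 and 105 (log2 -1.71 ± 0.33, adjusted p = 0.000194). MRPL12 was at 3.44, 3.45 and 8.84 against 17.5, 19.9 and 51.9 CPM (log2 -2.51 ± 0.38, adjusted p = 7.26e-06). Vehicle replicate 3 was the highest library for ATP5MC1 and MRPL12, and without it the counts of lower genes were 14 of 74 and 29 of 72, while without combo replicate 2 the respiratory chain count was 19 and with the replicate block 58. Of 19 tricarboxylic acid cycle genes, 6 were lower (11 with the replicate block) and 0 higher (median -0.45), with IDH3A at 19.4, 19.9 and 22.3 against 48.7, 45.9 and 36.9 CPM (log2 -1.09 ± 0.17, adjusted p = 1.17e-05) and FH at -1.13 ± 0.18. Of the 13 genes encoded in the mitochondrial genome, edgeR called 0 higher and 0 lower (median log2 0.11).

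Genes of nucleotide, glucose and lipid metabolism were lower more often than higher. Of 22 nucleotide synthesis genes, 17 were lower and 0 higher (median log2 -1.23), with CTPS1, which makes CTP, at 17.4, 18.0 and 16.2 against 83.1, 60.8 and 59.5 CPM (log2 -1.98 ± 0.20, adjusted p = 5.06e-09). Of 22 glycolysis genes, 10 were lower and 1 higher (median -0.48). LDHA, lactate dehydrogenase A, fell from 589, 489 and 353 CPM to 169, 168 and 145 (log2 -1.57 ± 0.22, adjusted p = 2.32e-06), and PFKFB3, which makes the activator of phosphofructokinase, rose from 72.7, 90.8 and 48.0 to 187, 209 and 227 (log2 1.56 ± 0.21, adjusted p = 6.11e-07). The glucose carrier SLC2A1 and the hexokinase HK2 were not called (adjusted p = 0.274 and 0.323).

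Of 22 genes of cholesterol synthesis and uptake, 16 were lower and 0 higher (median log2 -1.04). DHCR7, which completes the sterol, was at 7.37, 14.2 and 8.43 CPM in combo and 53.5, 46.1 and 45.1 in vehicle (log2 -2.27 ± 0.36, adjusted p = 1.39e-05). The groups stood apart, with combo replicate 2 the highest combo library. Of 12 fatty acid genes, 6 were lower and 1 higher. FASN, fatty acid synthase, was at 41.8, 103 and 57.0 against 275, 349 and 257 CPM (log2 -2.12 ± 0.33, adjusted p = 9.24e-06), and the desaturase SCD at 56.8, 86.8 and 41.1 against 224, 228 and 162 (log2 -1.74 ± 0.27, adjusted p = 6.78e-06), while ACSS2, which makes acetyl-CoA from acetate, was the 1 that rose (log2 1.09 ± 0.25, adjusted p = 0.00106).

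**Figure D2:**
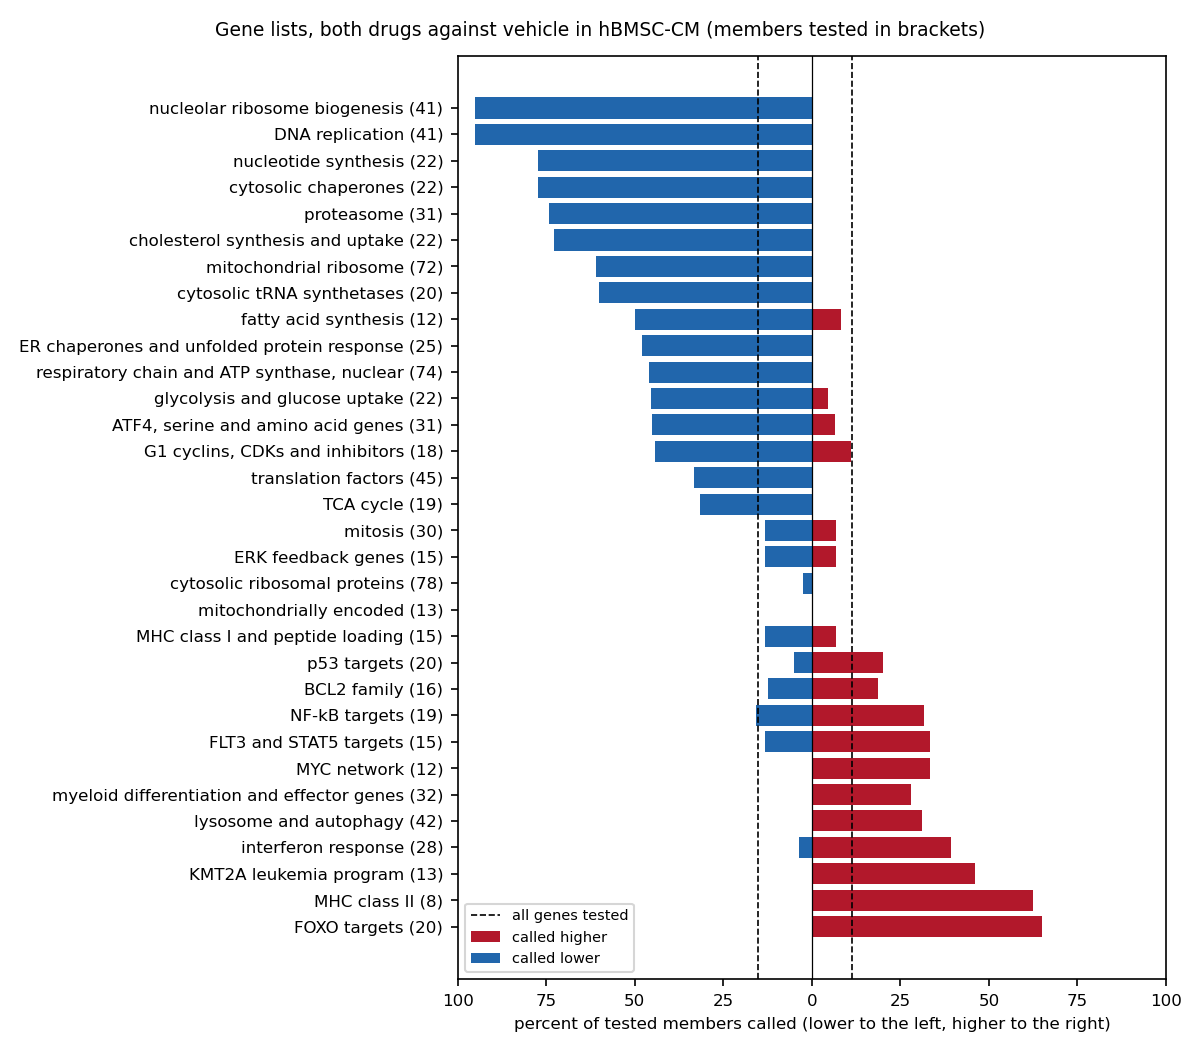
Percent of the tested members of each gene list called lower (bars to the left) and higher (bars to the right) in combo against vehicle in hBMSC-CM, with dashed lines at the 15.1% lower and 11.4% higher of all genes tested. Ribosome biogenesis and DNA replication stand at 39 of 41 members lower each, mitochondrially encoded genes at 0, and FOXO targets at 13 of 20 higher.

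Most targets of the FOXO factors rose. Of 20 tested, 13 were higher and 0 lower, with a median log2 fold change of 1.03, against 11.4% higher over all genes. Without replicate 1 of all groups 7 were higher (median 0.99), and with the replicate block 16. FBXO32, the ubiquitin ligase atrogin-1, was at 20.4, 25.2 and 19.1 CPM in combo and 4.46, 4.75 and 4.62 in vehicle (log2 2.23 ± 0.23, adjusted p = 1e-08). GABARAPL1, an autophagosome protein, was at 53.7, 63.7 and 61.5 against 9.05, 16.1 and 12.5 (log2 2.25 ± 0.30, adjusted p = 6.07e-07). Both were far above every vehicle library. PIK3IP1, a brake on PI3K, was at 20.5, 24.0 and 19.4 against 3.38, 6.76 and 4.07 CPM (log2 2.17 ± 0.30, adjusted p = 1.35e-06). TXNIP, an inhibitor of thioredoxin and of glucose uptake, was at 394, 410.1 and 488 against 86.4, 112 and 194 CPM (log2 1.72 ± 0.46, adjusted p = 0.00523), with vehicle replicate 3 the highest vehicle library. The forkhead motif GTAAACA (both strands) was in 12.5% of the 16 windows matched for the list, in 3.42% of all promoters and in 2.21% of the windows of genes tested. The windows with it, TXNIP and BCL2L11, are shown with the motif in capitals, since both genes rose.
TXNIP, chr1:145996530-145996829, minus strand: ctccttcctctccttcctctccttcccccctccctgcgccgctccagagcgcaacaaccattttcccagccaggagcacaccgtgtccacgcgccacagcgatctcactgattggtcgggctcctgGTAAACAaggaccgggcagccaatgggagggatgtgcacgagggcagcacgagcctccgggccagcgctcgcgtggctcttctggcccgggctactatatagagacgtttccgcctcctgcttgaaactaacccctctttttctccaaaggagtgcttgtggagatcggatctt
BCL2L11, chr2:111120664-111120963, plus strand: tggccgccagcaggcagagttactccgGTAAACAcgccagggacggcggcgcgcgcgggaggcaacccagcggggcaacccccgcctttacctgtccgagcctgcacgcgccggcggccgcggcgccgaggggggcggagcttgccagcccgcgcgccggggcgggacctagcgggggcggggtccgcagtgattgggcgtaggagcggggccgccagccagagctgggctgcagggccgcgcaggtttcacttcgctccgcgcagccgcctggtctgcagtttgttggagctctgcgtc

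Of 16 genes of the BCL2 family, which regulates apoptosis, 3 were higher (18.8%) and 2 lower (12.5%), near the 11.4% and 15.1% of all genes, and with the replicate block 5 and 4. Beside BMF, BCL2L11, which encodes the BH3-only protein BIM, was at 92.0, 77.9 and 58.4 against 41.2, 32.7 and 25.2 CPM (log2 1.2 ± 0.27, adjusted p = 0.000821). BCL2, the antiapoptotic founder of the family, was at 30.1, 30.1 and 23.5 against 52.2, 43.1 and 47.2 CPM (log2 -0.77 ± 0.16, adjusted p = 0.000534), and BID, a BH3-only protein, at 18.2, 22.6 and 25.1 against 62.6, 53.3 and 60.4 (log2 -1.42 ± 0.18, adjusted p = 3.28e-07). MCL1 was at 192, 194 and 183 against 149, 149.5 and 144 CPM, every combo library above every vehicle library, and missed the threshold (log2 0.36 ± 0.16, adjusted p = 0.0964) that it passed with the replicate block within each fraction (0.0299). Of 20 p53 target genes, 4 were higher (20%) and 1 lower (5%), and 25% were called in either direction against 26.5% of all genes. The replicate block called 6 higher and 3 lower, and log2 fold changes in the main fit ran from -1.33 to 2.15. TP53INP1 was at 26.0, 23.8 and 18.9 against 5.87, 6.44 and 3.18 CPM (log2 2.15 ± 0.37, adjusted p = 3.87e-05), and BTG2 rose by log2 2.09 ± 0.32.

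Part of the lysosome, interferon and myeloid genes rose. Of 42 lysosome and autophagy genes, 13 were higher and 0 lower (median log2 0.55), a count of 8 without vehicle replicate 3 and 23 with the replicate block. SQSTM1, the autophagy receptor p62, was at 279.5, 373 and 248 against 95.1, 166 and 99.8 CPM (log2 1.32 ± 0.32, adjusted p = 0.00234), and WIPI1 rose by 1.33 ± 0.28. Of 28 interferon response genes, 11 were higher and 1 lower (median 0.77), ISG20, an exonuclease, at 25.2, 15.6 and 27.2 against 2.04, 4.69 and 4.1 CPM (log2 2.65 ± 0.55, adjusted p = 0.000419) and GBP2, a guanylate-binding protein, at 20.7, 32.0 and 21.5 against 5.81, 9.95 and 4.1 (log2 1.90 ± 0.45, adjusted p = 0.00172). BST2 (tetherin) was the 1 that fell (log2 -0.92 ± 0.23, adjusted p = 0.0024), a call lost without vehicle replicate 3 (adjusted p = 0.12).

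Of 32 genes of myeloid differentiation and function, 9 were higher (14 with the replicate block) and 0 lower (median log2 0.53). CSF1R, the receptor for macrophage colony-stimulating factor, was at 142, 204 and 158 against 27.5, 53.2 and 24.7 CPM (log2 2.26 ± 0.28, adjusted p = 3.17e-07), CD36, a scavenger receptor, at 19.2, 34.9 and 25.8 against 4.29, 9.31 and 6.14 (log2 2.02 ± 0.36, adjusted p = 7.12e-05), and TLR4, the lipopolysaccharide receptor, at 76.4, 67.7 and 56.5 against 31.8, 21.8 and 16.1 (log2 1.53 ± 0.23, adjusted p = 5.62e-06). FPR1, a chemotactic receptor, was at 58.5, 74.5 and 71.5 against 22.9, 40.8 and 21.6 CPM (log2 1.27 ± 0.36, adjusted p = 0.0087). MPO, the myeloperoxidase of granulocyte precursors, is on the marker list and not on this one, and it fell, being at 28.2, 23.6 and 23.4 against 67.1, 69.0 and 59.1 CPM (log2 -1.38 ± 0.34, adjusted p = 0.00273). Of 8 MHC class II genes, 5 were higher and 0 lower (median 1.27), for example HLA-DRA at 5.14, 14.4 and 16.8 against 1.4, 3.41 and 2.91 CPM (log2 2.23 ± 0.50, adjusted p = 0.00104) and HLA-DRB1 at 2.64, 8.01 and 12.7 against 0.817, 0.925 and 1.71 (log2 2.75 ± 0.52, adjusted p = 0.000152). These are low levels, combo replicate 1 is the lowest combo library for both, and reads of HLA genes can be split among near-identical copies. Of 15 MHC class I and peptide loading genes, 1 was higher (6.67%) and 2 lower (13.3%), against 11.4% and 15.1% of all genes. The replicate block called 6 higher and 3 lower, and with libraries left out 0 to 1 were lower. Log2 fold changes of the list ran from -0.81 to 1.10. HLA-E was the 1 that rose, from 458, 583 and 549.7 CPM to 1138, 1130.0 and 1149 (log2 1.10 ± 0.17, adjusted p = 5.27e-06).

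Part of the NF-kB targets and part of the KMT2A leukemia genes rose. NF-kB targets were called higher at 31.6% and lower at 15.8%, against 11.4% and 15.1% of all genes tested. Of the KMT2A genes 46.2% were called higher. Of 19 NF-kB target genes, 6 were higher and 3 lower: BCL3, a nuclear IkB protein, was at 253, 214 and 392 against 70.5, 69.7 and 121 CPM (log2 1.72 ± 0.31, adjusted p = 6.71e-05), ICAM1, an adhesion molecule, at 16.3, 22.6 and 19.3 against 5.72, 8.55 and 6.17 (log2 1.51 ± 0.30, adjusted p = 0.000278), and TNF fell from 23.3, 23.4 and 43.3 to 4.61, 7.71 and 8.64 (log2 -2.10 ± 0.35, adjusted p = 2.84e-05). Of 13 genes of the KMT2A leukemia program, 6 were higher and 0 lower, a count of 3 without vehicle replicate 3 and 10 with the replicate block. RUNX2 was at 30.7, 34.4 and 21.3 against 16.1, 17.1 and 8.64 CPM (log2 1.05 ± 0.25, adjusted p = 0.00161), and MEIS1, the HOXA9 cofactor, at 83.4, 98.9 and 91.2 against 46.0, 50.2 and 42.4 (log2 0.98 ± 0.19, adjusted p = 0.000191).

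The genes that encode the drug targets were not called in hBMSC-CM. Targets of FLT3 signaling were called lower there at shares near that of all genes. FLT3 was at 72.0, 79.5 and 39.1 CPM in combo and 61.3, 50.7 and 27.6 in vehicle (log2 0.45 ± 0.26, adjusted p = 0.211), and MTOR at 60.7, 75.0 and 50.2 against 75.6, 74.7 and 61.0 (log2 -0.18 ± 0.35, adjusted p = 0.751). Of 15 FLT3 and STAT5 target genes, 5 were higher (9 with the replicate block) and 2 lower (median log2 0.36), and of 15 ERK feedback genes 1 was higher and 2 were lower (median -0.17). Called higher were 33.3% of the first list and 6.67% of the second, against 11.4% of all genes tested. Called lower were 13.3% of each list, against 15.1%. PIM1, a survival kinase, rose from 192, 127 and 151 CPM to 278, 239.7 and 353 (log2 0.89 ± 0.23, adjusted p = 0.00336). PIM2 was at 68.0, 67.1 and 93.4 against 27.6, 27.9 and 27.0 CPM (log2 1.47 ± 0.25, adjusted p = 2.84e-05), and SOCS3, a feedback inhibitor of cytokine signaling, at 135, 134 and 158 against 47.4, 44.5 and 58.4 (log2 1.5 ± 0.23, adjusted p = 8.85e-06). In these 3 the groups stood apart, combo the higher. STAT5A was at 1.02 ± 0.18 and its neighbor STAT5B was not called (adjusted p = 0.318). Of the ERK genes, FOS rose (log2 1.48 ± 0.25, adjusted p = 2.79e-05) and ETV4, an ETS factor, fell from 20.4, 12.2 and 23.3 CPM to 2.79, 2.29 and 6.04 (log2 -2.33 ± 0.45, adjusted p = 0.000152). FOSL1 was lower too (log2 -1.62 ± 0.54, adjusted p = 0.0226), with its call lost without combo replicate 1 or 2 or vehicle replicate 3 (adjusted p = 0.0932 to 0.114).

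MYC was at 274, 291 and 309.5 CPM in combo and 606, 422 and 399 in vehicle, 61.3% of the vehicle level, with every combo library below every vehicle library (log2 -0.71 ± 0.30, adjusted p = 0.074). The fall missed the threshold in the fit over all libraries and passed it with the replicate block within each fraction (adjusted p = 0.00402). Of the 12 genes of the MYC network, 4 were higher and 0 lower. MXD1, a repressor that competes with MYC for MAX, was at 209, 217 and 177 against 58.4, 72.9 and 35.3 CPM (log2 1.86 ± 0.27, adjusted p = 2.66e-06), and MXD4, of the same family, at 90.5, 57.0 and 73.0 against 33.1, 35.1 and 37.8 (log2 1.06 ± 0.29, adjusted p = 0.00584).

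The same drugs at the same doses were also given in regular RPMI, and the difference between the effects in the media was tested as an interaction. In RPMI 4839 genes were called (37.4%), 2296 higher (17.7%) and 2543 lower (19.7%), and 57.4% of genes had separate CPM ranges in the groups. The effect differed between media for 72 genes (0.556%), with 70 (0.541%) higher in hBMSC-CM relative to RPMI and 2 (0.0155%) lower, SLC2A14 and HRC. Of the 70, 64 were called lower in RPMI, 36 were called lower in both media and 12 were called higher in hBMSC-CM. With the replicate block within each fraction the count was 378, and with each library left out in turn it was 42 (without hBMSC-CM vehicle replicate 2) to 79, with 46 without RPMI vehicle replicate 1.

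Of the 15 ERK feedback genes, 9 were among the 72, and of the 15 FLT3 and STAT5 targets 4. MYC fell in RPMI from 577, 453 and 441 CPM to 29.0, 27.4 and 43.1 (log2 -3.88 ± 0.33, adjusted p = 2.59e-11), and its effect in hBMSC-CM was higher by 3.18 ± 0.43, adjusted p = 2.44e-05. PIM1 fell in RPMI from 24.5, 24.5 and 23.9 to 9.26, 7.27 and 10.3 CPM (log2 -1.44 ± 0.23) and rose in hBMSC-CM, a difference of 2.33 ± 0.33, adjusted p = 4.36e-05. PIM2 fell in RPMI from 13.9, 16.9 and 18.2 to 4.71, 6.04 and 7.5 CPM (log2 -1.42 ± 0.25), a difference of 2.89 ± 0.35, adjusted p = 7.55e-06. Both kinases thus went in opposite directions in the 2 media. CISH, a feedback inhibitor of STAT5 signaling, was at 88.5, 70.5 and 96.3 against 74.1, 55.6 and 75.5 CPM in hBMSC-CM (not called, adjusted p = 0.13) and at 20.9, 18.6 and 25.7 against 53.1, 52.3 and 59.2 in RPMI, a difference of 1.65 ± 0.22, adjusted p = 2.35e-05. ETV5, an ETS factor downstream of ERK, was at 16.9, 22.8 and 23.4 against 27.2, 22.1 and 24.7 CPM in hBMSC-CM and at 0.816, 1.6 and 2.69 against 25.4, 21.6 and 22.5 in RPMI (difference 3.54 ± 0.56, adjusted p = 0.000368). The early response gene EGR1 (difference 3.51 ± 0.75) and the feedback inhibitors SPRY2 (2.58 ± 0.55), SPRED1 (2.11 ± 0.49) and SPRED2 (2.12 ± 0.41) differed the same way. DUSP6, the ERK phosphatase, did not pass (difference 1.78 ± 0.96, adjusted p = 0.923), with replicate 3 high in each combo group (34.6, 37.8 and 77.9 CPM in hBMSC-CM and 2.98, 3.86 and 20.4 in RPMI).

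CISH is the 1 FLT3 and STAT5 target of the list whose promoter window held the STAT motif TTCNNNGAA, which reads the same on both strands. The window held it 4 times, in capitals, and it is shown for that number. The motif was in 7.66% of all promoters, in 6.29% of the windows of genes tested and in 8.33% of the 12 windows matched for the list.
CISH, chr3:50611725-50612024, minus strand: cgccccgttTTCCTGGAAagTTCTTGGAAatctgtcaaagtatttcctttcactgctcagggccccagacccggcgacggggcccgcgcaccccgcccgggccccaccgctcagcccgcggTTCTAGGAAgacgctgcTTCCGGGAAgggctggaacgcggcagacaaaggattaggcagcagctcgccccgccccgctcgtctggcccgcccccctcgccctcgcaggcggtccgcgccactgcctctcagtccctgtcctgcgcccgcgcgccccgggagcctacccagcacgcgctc

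**Figure D3:**
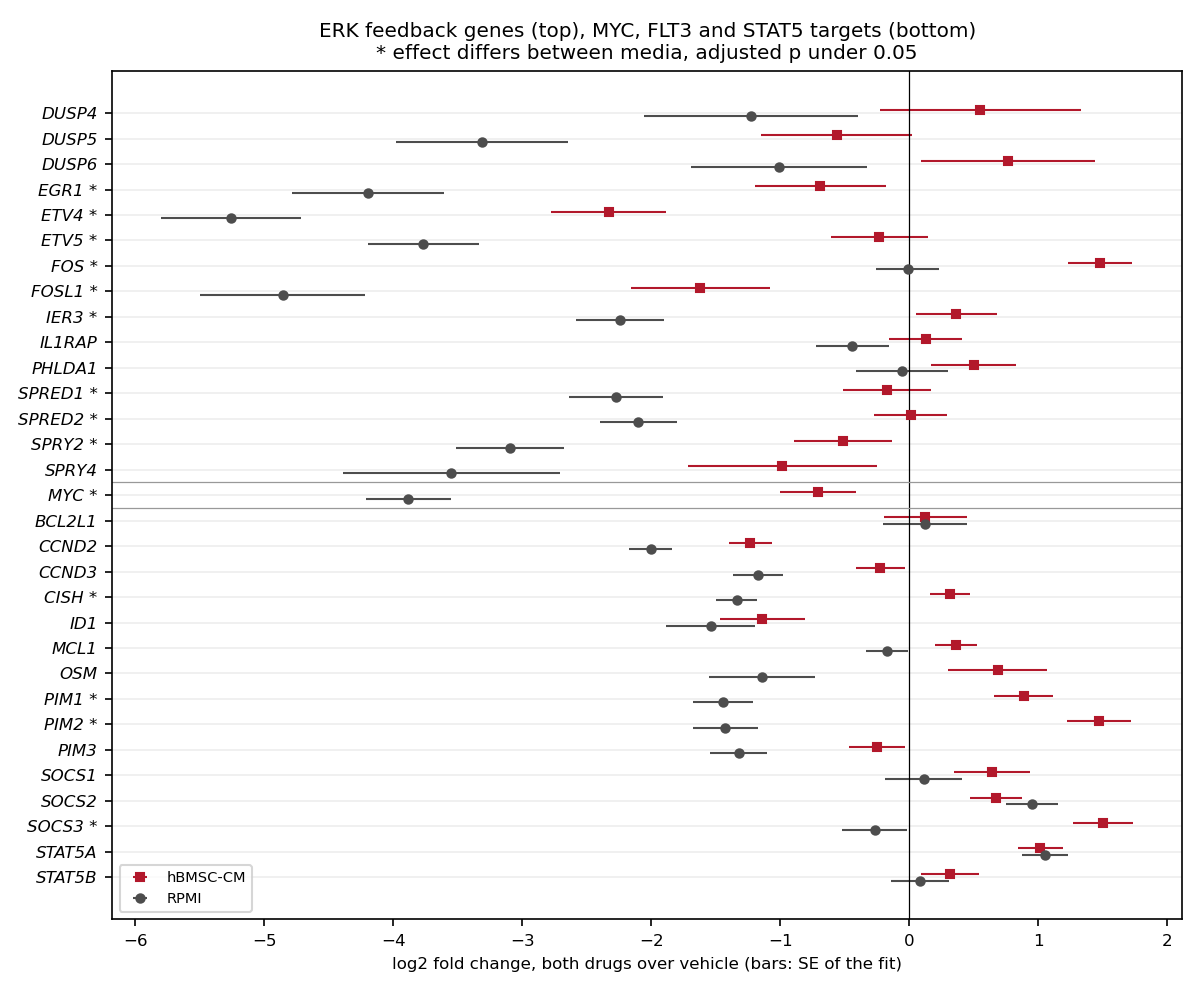
Log2 fold change of combo over vehicle (x axis, bars of 1 SE of the fit) in hBMSC-CM and in RPMI for the 15 ERK feedback genes, MYC and the 15 FLT3 and STAT5 targets, with an asterisk where the effect differed between media. ERK feedback genes have a median of -0.17 in hBMSC-CM, with members on both sides of 0 from -2.33 to 1.48, and a median of -2.28 in RPMI.

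Lists of biosynthetic genes moved in the same direction in both media. The median log2 fold change of ribosome biogenesis genes was -1.49 in hBMSC-CM and -2.38 in RPMI, and 4 of 41 members differed between media. For DNA replication genes the medians were -1.57 and -2.22, and 0 of 41 members differed. Respiratory chain genes had medians of -0.69 and -0.50, cholesterol genes -1.04 and -0.89, and FOXO targets 1.03 and 1.08, with 0 members of these 3 lists called different by edgeR. SLC29A1 fell further in RPMI, from 157, 124 and 111 CPM to 2.7, 2.32 and 1.11 (log2 -6.00), than in hBMSC-CM (difference 2.55 ± 0.48, adjusted p = 0.00337).

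Each drug alone in hBMSC-CM called fewer genes than both together. Against the same 3 vehicle libraries, quizartinib called 1591 genes (12.3%), 706 higher (5.46%) and 885 lower (6.84%), and everolimus called 53 (0.41%), 29 higher and 24 lower (0.185%). The 3 contrasts share those vehicle libraries, so their values are given side by side. Ribosome biogenesis genes had medians of -0.39 under everolimus, -0.82 under quizartinib and -1.49 under both, with 0, 22 and 39 of 41 lower. DNA replication genes had medians of -0.32, -1.25 and -1.57, with 0, 34 and 39 lower. Cholesterol genes were ordered otherwise, with medians of -1.05, -0.44 and -1.04 and 7, 3 and 16 of 22 lower. DHCR7 was at 18.2, 18.0 and 22.9 CPM under everolimus and 20.0, 27.9 and 27.7 under quizartinib, both between combo and vehicle. FOXO targets had medians of 0.66, 0.56 and 1.03, and BMF was at 79.3, 87.5 and 91.9 CPM under everolimus and 150.1, 175 and 139.9 under quizartinib, both between vehicle and combo. MHC class II and myeloid genes had medians under quizartinib alone of 1.43 and 0.75 against 1.27 and 0.53 under both.

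The direct comparison of combo with quizartinib called 31 genes (0.24%), all lower in combo, and 0 higher, and all 31 were also lower against vehicle. By an unadjusted p under 0.05, 789 genes passed. The 31 included 5 of the 25 endoplasmic reticulum genes: MANF (log2 -1.57 ± 0.36, adjusted p = 0.0432), SDF2L1 (log2 -1.56 ± 0.33, adjusted p = 0.0277), CRELD2 (log2 -1.40 ± 0.29, adjusted p = 0.0223), HSPA5 (log2 -1.32 ± 0.28, adjusted p = 0.0277) and PDIA3 (log2 -0.73 ± 0.16, adjusted p = 0.0432). HSPA5, the main chaperone of that compartment, was at 785, 1174 and 1006 CPM under quizartinib and 293, 544 and 348 under both. SLC39A14 was the largest of the 31, at 4.66, 8.08 and 7.17 CPM under quizartinib and 1.12, 1.56 and 0.78 under both (log2 -2.52 ± 0.44, adjusted p = 0.00588), and CDC25A was at 13, 16.4 and 17.8 against 6.05, 7.56 and 5.03 (log2 -1.34 ± 0.22, adjusted p = 0.00349). The count depended on the fit: it was 380 with the replicate block within each fraction, 102 by DESeq2, 18 without scaling factors and 0 in a fit of these groups alone, where 1063 genes passed unadjusted. With 1 library left out it was 4 without combo replicate 1, 19 without combo replicate 2, 74, 3 and 4 without quizartinib replicates 1, 2 and 3.

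The direct comparison with everolimus called 1437 genes (11.1%), 461 higher (3.56%) and 976 lower (7.54%). Everolimus libraries did not share the high replicate 1 of the other groups. Mitochondrially encoded genes took 3.04, 3.44 and 3.59% of their counts, against 6.18% in combo replicate 1 and 5.80% in vehicle replicate 1. The lowest correlation of same-numbered combo and everolimus deviations was r = -0.053. The part of a batch in the contrasts that use everolimus libraries was not tested. Of the ribosome biogenesis genes 33 were lower under both drugs than under everolimus alone, of the DNA replication genes 35, and of the cholesterol genes 1. NME1 was at 32.9, 32.2 and 33.7 CPM under everolimus and 2.82, 4.43 and 9.01 under both (log2 -2.6 ± 0.41, adjusted p = 5.61e-05), and ISG20 at 5.32, 5.21 and 6.12 against 25.2, 15.6 and 27.2 (log2 2.03 ± 0.54, adjusted p = 0.00998). Without 1 library the count was 803 to 1302, lowest without everolimus replicate 3, with 851 and 941 without combo replicates 1 and 2 and 836 and 869 without everolimus replicates 1 and 2.

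The combo effect was then set against the sum of the effects of the single drugs on the log2 scale. By edgeR 0 of 12939 genes (0%) differed from that sum, 213 passed at an unadjusted p under 0.05, limma voom called 0 and DESeq2 called 2. For BMF the difference from the sum was -0.75 ± 0.44 and for MRTO4 -0.47 ± 0.40, and neither passed (adjusted p = 1 for both). A p that misses the threshold does not show that the effects add.

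**Figure D4:**
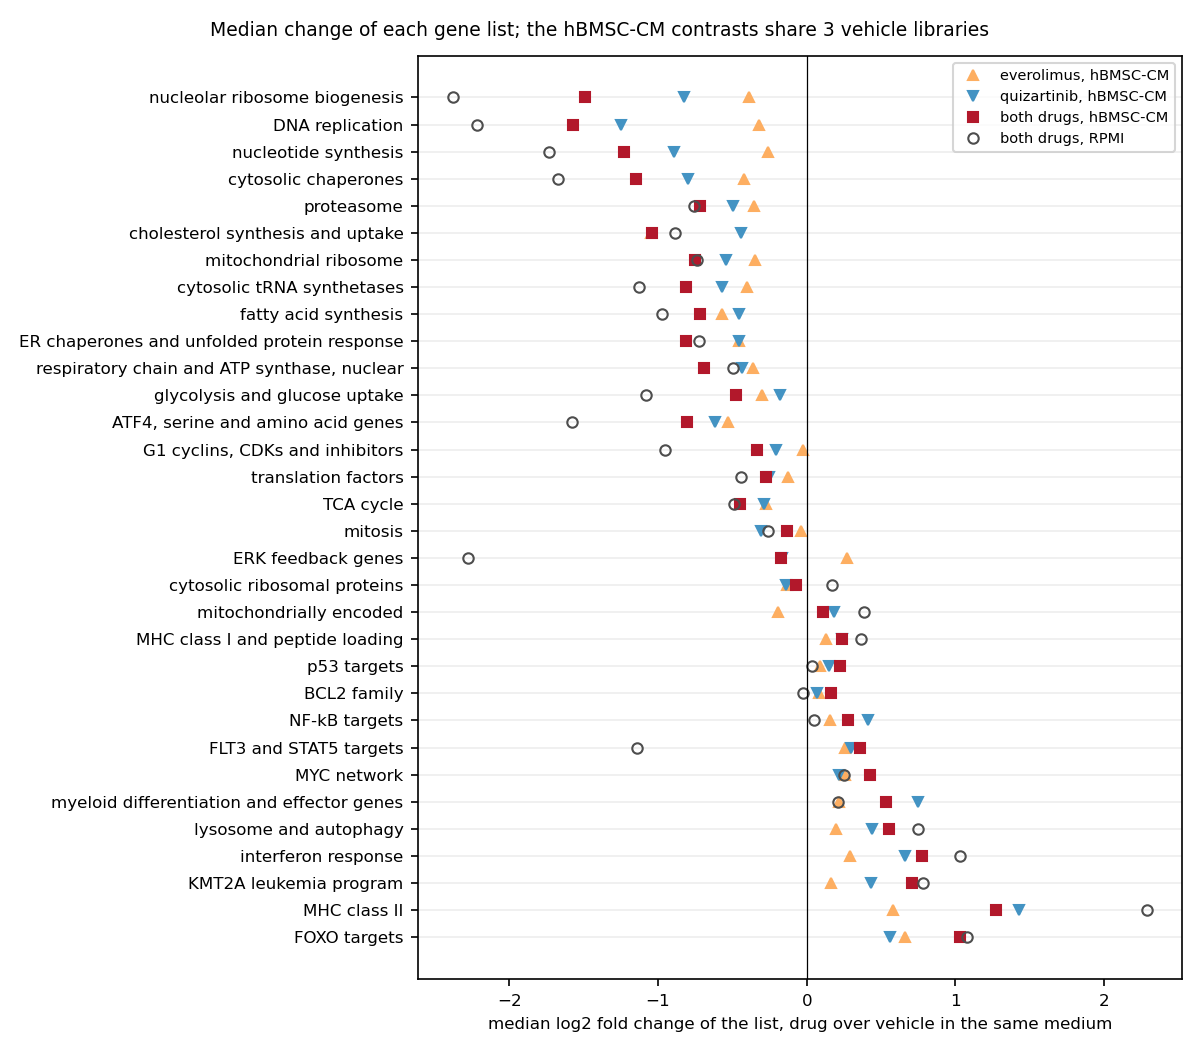
Median log2 fold change over vehicle in the same medium for each gene list under everolimus, quizartinib and both drugs in hBMSC-CM and under both drugs in RPMI. Ribosome biogenesis lies at -0.39, -0.82 and -1.49 in hBMSC-CM and at -2.38 in RPMI, while cholesterol genes lie at -1.05 under everolimus and -1.04 under both drugs.

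**Figure D5:**
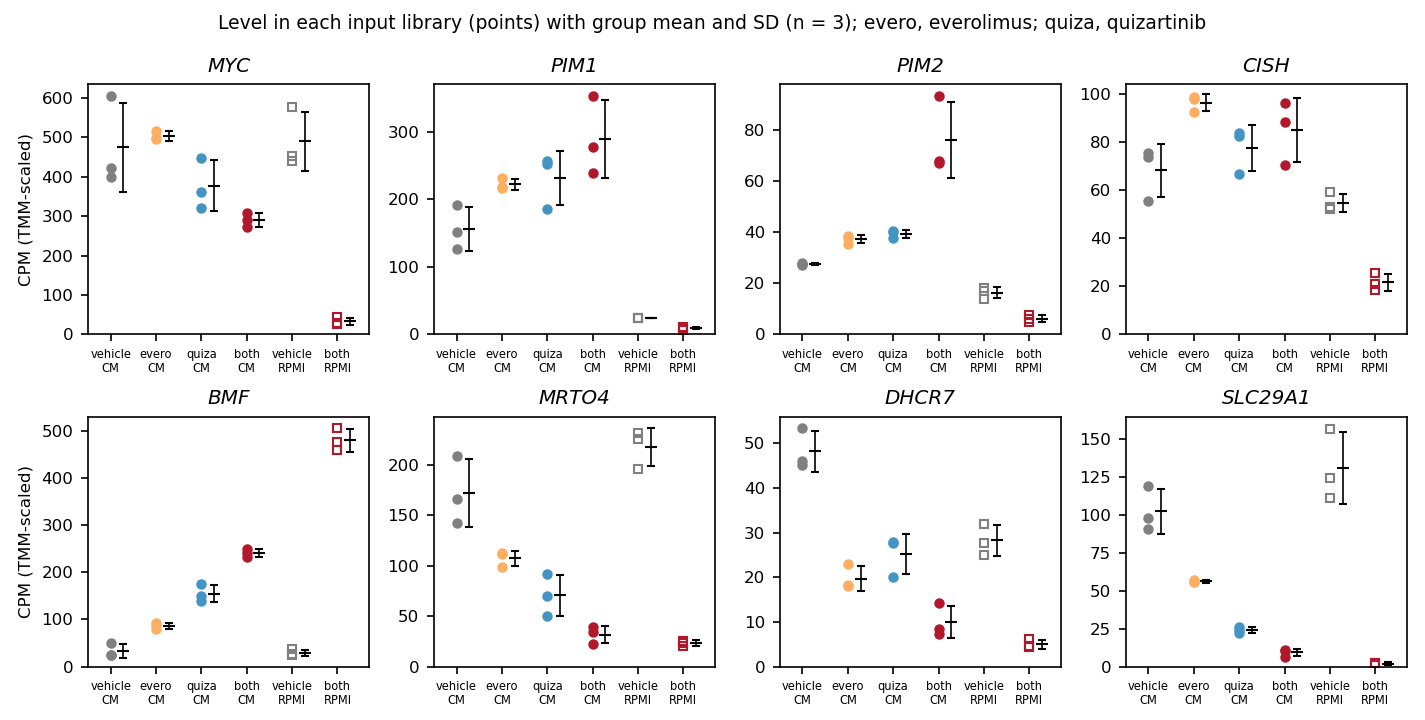
CPM of 8 genes in each input library (points) with the mean and SD of each group of 3, for vehicle, everolimus, quizartinib and both drugs in hBMSC-CM (CM, filled) and vehicle and both drugs in RPMI (open). MYC is at 274 to 309.5 CPM under both drugs in hBMSC-CM and at 27.4 to 43.1 in RPMI, while PIM1 and PIM2 rise in one medium and fall in the other.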

How the data were processed

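RNA of MOLM-13 cultures was measured before (input) and after polysome fractionation, and the text reports input. The deposited values are raw counts per gene. Per the labels and the study's methods, the authors made poly(A) libraries, sequenced them as paired ends, trimmed with BBDuk, removed reads under 50 bases, and aligned and counted with STAR 2.6.0a on Ensembl hg38 annotation. Of 58884 gene rows, 25133 held no count, and rows of 150 shared names were summed. Genes had to average 1 count and 1 CPM or more over the 42 libraries to be tested (12939, holding 99.77% of counts). Groups came from the sample labels.

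Comparisons used edgeR 4.0.16 (R 4.3.3) with TMM factors and robust quasi-likelihood tests, fitting 14 group means to all 42 libraries, with Benjamini-Hochberg adjustment over all genes tested, threshold 0.05. Errors of log2 fold changes are standard errors of that fit. Alternatives were DESeq2 1.42.0, limma 3.58.1 (voom), other scalings, filters and library sets, replicate blocks and left-out libraries. A left-out input library was dropped with the polysome library of the same culture. The scripts were tested on simulated data. Same-numbered combo and vehicle libraries deviated together (r = 0.55, 0.43 and 0.59), as they did for quizartinib (at least 0.44) and across media (at least 0.28). Numbers were therefore taken to pair samples there, but not with everolimus. The main fit held no replicate block, so its counts and adjusted p leave this pairing out. It also treated input and polysome libraries of the same culture as independent. Replicates were not duplicates (within-group r 0.942 to 0.981). Counts limit precision through counting error and replicate spread.

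The libraries were chosen by their labels, and the gene lists with their members were written with earlier results of these data known. Named genes were a fixed set, the 12 largest rises and falls described in the text, up to 3 of each direction per list, and the 4 largest of each direction in the other comparisons. Promoter windows came from RefSeq (GRCh38.p14) matched by symbol. That table is not complete, so the motif share was not used for lists with under 80% of members matched. Polysome libraries entered the fit and are not reported here. Values of some list members are not reported here.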

Additional observations from a re-analysis of the deposited data

Results flagged for a closer look

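The effect of both drugs differed between hBMSC-CM and RPMI for 72 genes (edgeR interaction test, adjusted p under 0.05), and the named genes among them are flagged for that difference. Each value is the log2 fold change in hBMSC-CM minus that in RPMI.

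Among genes of FLT3, STAT5 and ERK signaling the difference was 3.18 for MYC, 2.33 for PIM1, 2.89 for PIM2, 1.65 for CISH and 1.77 for SOCS3. It was 3.54 for ETV5, 2.93 for ETV4, 3.24 for FOSL1, 3.50 for EGR1 and 1.49 for FOS. The feedback inhibitors stood at 2.58 for SPRY2, 2.11 for SPRED1 and 2.12 for SPRED2, and the early response gene IER3 at 2.61.

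Among genes with a large fall in hBMSC-CM it was 1.80 for B4GALT2, 2.55 for SLC29A1, 2.86 for SLCO4A1, 3.11 for HPDL and 1.17 for CTPS1. The opposite sign was seen for SLC2A14 (-2.10), whose reads can be shared with SLC2A3, and for HRC (-1.39).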

How the results depend on the processing

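The limits are 3 libraries per group and a replicate 1 with more mitochondrially encoded counts in every input group compared except everolimus. Combo against vehicle in hBMSC-CM (3430 genes) gave 6874 with only the groups compared and a replicate block and 5494 with the replicate block within each fraction. The difference between media (72) gave 128 by DESeq2, 120 without a filter, 248 with only input libraries, 832 with only the groups compared and a replicate block, and 178 or 378 with the replicate block plain or within each fraction. Combo against quizartinib (31) gave, in the same order, 102, 80, 203, 3367, 154 and 380, and 18 with library size only and 0 with only the groups compared. Combo against everolimus (1437) gave 2904 with only input libraries, 3719 with only the groups compared, 3792 with a replicate block there, and 2320 or 3290 with the replicate block plain or within each fraction. The sum of the single drugs (0) gave 2 by DESeq2, 8 without a filter, 2 with only the groups compared and a replicate block, and 1 with the replicate block within each fraction. Combo in RPMI (4839) gave 7916 with only the groups compared and a replicate block. With libraries left out the counts were 1843 to 3283 against vehicle, 18 to 79 between media, 0 to 74 against quizartinib, 381 to 1429 against everolimus, 0 to 0 for the sum and 3314 to 4331 in RPMI, the low ends mostly where 1 replicate number was left out of every group, which was chosen after seeing the data. Uncalled genes that changed sign were ATF4 (-0.62 to 0.20 with libraries left out), SPRED1 (-0.44 to 0.23) and SPRED2 (-0.26 to 0.46, and -0.0039 with only the groups compared). TXNIP and FPR1 lost their calls without replicate 1 of all groups (adjusted p by edgeR = 0.159 and 0.107), and CHAC1 without replicate 3 (0.0737). The causes were not tested.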

Other observations

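Further gene groups, put together after their values were seen, are given as values without a test of the group. Of 4 genes tested of the YPEL family, small zinc-binding proteins, 4 were higher under both drugs in hBMSC-CM (median log2 1.73), YPEL2 losing its call without vehicle replicate 3 (adjusted p by edgeR = 0.0503). The family's median was 2.61 in RPMI. Of 15 subunits of RNA polymerases I and III, which transcribe ribosomal and transfer RNA, 10 were lower and 1 higher (median -0.95). Of 11 genes of the RNA exosome, the nuclease that trims and degrades RNA, 8 were lower (median -1.12). Of 20 mitochondrial import translocases, which carry proteins into mitochondria, 13 were lower (median -1.09).

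Of 16 zinc transporters, 3 were lower, SLC39A14 among them, and 1 higher (18.8% and 6.25%, against 15.1% and 11.4% of all genes), and with the replicate block 5 were lower. Of 10 polyamine genes, 2 were lower and 2 higher (20% each, against 15.1% and 11.4% of all genes), and with the replicate block 4 and 3. ODC1, which starts polyamine synthesis, was at 33.1, 37.1 and 42.4 CPM in combo and 151, 132 and 136 in vehicle (log2 -1.90 ± 0.22, adjusted p = 6.98e-08), and SRM, which makes spermidine, at 27.6, 26.9 and 36.4 against 199, 167 and 258 (log2 -2.78 ± 0.24, adjusted p = 3.57e-10). SAT1, which acetylates polyamines for export or breakdown, was at 99.4, 126 and 168 against 40.5, 60.3 and 76.9 CPM (log2 1.15 ± 0.30, adjusted p = 0.0046). The synthesis genes were below, and SAT1 above, every vehicle library.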
